A study of Mus musculus with 12 samples.

Results

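Pou5f1 (Oct4), Sox2, Nanog, Esrrb and Zfp42 (Rex1) were taken as the core pluripotency genes and were followed transcript by transcript and peak by peak. They were chosen by symbol, as 5 of the 21905 protein-coding genes that could be placed on the assembled chromosomes. Their 19 annotated transcripts are part of the 137767 transcripts quantified. The 7 peak lists held 229 peaks with a summit in one of these genes or within 100 kb of it, of 128567 peaks in all.

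The study compared chromatin occupancy of Ctr9, a scaffold subunit of the RNA polymerase II associated factor 1 complex (Paf1C), between mouse embryonic stem cells (mESCs) and fibroblasts. The mESC samples were labelled as the line ES-E14 (E14TG2a in the culture protocol), and the fibroblast samples were NIH-3T3, an established line of embryonic fibroblasts (NIH3T3). According to the methods, both were grown in the same Glasgow medium with serum and leukaemia inhibitory factor, which keeps mESCs undifferentiated. Each cell type had 1 RNA-seq library, and each ChIP-seq target had 1 library per cell type, so no value below has a replicate and no test across samples was possible.

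Ctr9 was precipitated through GFP, which had been inserted at the C terminus of the endogenous gene in each line. The GFP-positive cells were collected by sorting and used as a pool, not as single clones. NELFA, a subunit of the negative elongation factor NELF, was precipitated through GFP in a mESC line carrying a tagged copy, and the study describes RNA polymerase II phosphorylated at serine 5 (RNAPII Ser5p) as measured in that line. H3K27ac, an acetylation of histone H3 that marks active promoters and enhancers, was measured in both cell types. RNAPII phosphorylated at serine 2 (RNAPII Ser2p) was measured in mESCs. For H3K27ac, RNAPII Ser2p and the RNA-seq libraries the sources used here do not say whether tagged cells were used. NELFA and both RNAPII forms have no NIH3T3 list, and the 3 input samples were not used here.

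Oct4 and Sox2 are transcription factors that bind neighbouring sequences on DNA as a pair, and with the homeodomain factor Nanog they hold mESCs in the undifferentiated state. Esrrb is an orphan nuclear receptor of the same circuit, and Zfp42 encodes a zinc finger protein widely used as a marker of naive pluripotency. At transcribed genes NELF and RNAPII Ser5p are found near the start, where the polymerase pauses, whereas RNAPII Ser2p rises along the gene and is highest near and past the polyadenylation site. Paf1C travels with the elongating polymerase.

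The 4 sequences below show the starts on which the maps turn, each read 5′ to 3′ on the strand of the gene from 250 bases before to 50 bases after an annotated start (GRCm38.p6, the assembly of mm10). The Nanog and Zfp42 windows come from the RefSeq promoter table and are the windows of these genes in which a searched motif was found. The first Esrrb window is the RefSeq promoter of the start used by its highest transcript, at chr12:86421394-86421693 on the plus strand. The second, at chr12:86469867-86470166 on the plus strand, was read from the genome at the start of the shorter transcript Esrrb-206. Capitals mark the Oct-Sox composite in Nanog, at chr6:122707239-122707538 on the plus strand, and the octamer in Zfp42, at chr8:43306960-43307259 on the minus strand. Lower case throughout means that no searched motif was found.
Nanog: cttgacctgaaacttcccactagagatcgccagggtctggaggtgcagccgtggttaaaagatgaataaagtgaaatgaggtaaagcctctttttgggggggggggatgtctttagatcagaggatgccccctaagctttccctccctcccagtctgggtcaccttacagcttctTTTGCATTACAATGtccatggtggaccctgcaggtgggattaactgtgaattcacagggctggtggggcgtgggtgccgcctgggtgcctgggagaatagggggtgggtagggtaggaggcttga
Zfp42: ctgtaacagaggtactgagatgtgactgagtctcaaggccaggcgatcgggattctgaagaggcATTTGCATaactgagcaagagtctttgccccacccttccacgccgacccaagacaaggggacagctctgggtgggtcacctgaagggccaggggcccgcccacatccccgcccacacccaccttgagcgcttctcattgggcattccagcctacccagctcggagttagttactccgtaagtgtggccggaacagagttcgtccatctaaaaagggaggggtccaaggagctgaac
Esrrb-203: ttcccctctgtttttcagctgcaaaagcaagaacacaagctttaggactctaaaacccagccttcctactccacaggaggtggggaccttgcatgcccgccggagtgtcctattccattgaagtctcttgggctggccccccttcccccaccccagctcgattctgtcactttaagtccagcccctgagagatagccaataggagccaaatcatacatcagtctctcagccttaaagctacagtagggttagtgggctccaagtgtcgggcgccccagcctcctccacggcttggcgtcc
Esrrb-206: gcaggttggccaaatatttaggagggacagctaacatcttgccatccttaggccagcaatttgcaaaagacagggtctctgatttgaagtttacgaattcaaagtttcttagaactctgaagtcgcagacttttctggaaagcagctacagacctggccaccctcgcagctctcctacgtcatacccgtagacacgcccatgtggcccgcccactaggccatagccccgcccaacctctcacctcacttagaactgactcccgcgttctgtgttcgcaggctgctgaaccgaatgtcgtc

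The composite was searched as TTTGCATNACAANG on both strands, where N is any base. It was present in 3 of 32851 RefSeq promoter windows (0.00913%), of which 2 were the overlapping windows of Nanog. In Nanog the word lies at chr6:122707414-122707427, at -75 bp from the gene start and at -154 bp from the start of Nanog-201. No peak of the 7 lists covered it. The nearest summits were RNAPII Ser5p at -294 bp, NELFA at 292 bp and Ctr9 at -348 bp from the first base of the word, so it sat in a gap between peaks on both sides. The octamer ATTTGCAT, searched on both strands, was present in 1.74% of all windows and in 1 of the 8 windows of these genes, that of Zfp42. The Esrrb recognition site TCAAGGTCA, on both strands, was present in 0.423% of all windows, and TATAAA, on the sense strand, in 8.32%. Neither was present in the 8 windows.

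Both RNA-seq libraries matched their labels by marker genes. The estimated counts summed to 26400407 in mESCs and 28849497 in NIH3T3. The 5 stem cell markers summed to 830 TPM (transcript abundance scaled to the same total in each library) in mESCs and 3.20 TPM in NIH3T3, and all 5 were above 1 TPM in mESCs. The 6 fibroblast markers summed to 244 TPM in mESCs and 4426 TPM in NIH3T3. Of these, the collagen genes Col1a1 and Col1a2 were at 0.203 and 0.132 TPM in mESCs, Pdgfrb at 0.543 TPM and Thy1 at 5.69 TPM. Vim and Fn1 were at 162 and 75.7 TPM in mESCs. Trophectoderm markers summed to 40.9 TPM in mESCs, of which Krt8 made 39.2 TPM and Cdx2 was at 0. Primitive endoderm and primed epiblast markers summed to 3.51 and 9.30 TPM in mESCs.

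The 5 genes were read in mESCs and were at or near the limit of detection in NIH3T3. Their transcripts together took 97950 estimated counts in mESCs and 19.5 in NIH3T3, all of the latter on Nanog-203. Pou5f1, Sox2, Esrrb and Zfp42 had no count in NIH3T3. In bulk samples fewer cells of a type and less RNA per cell cannot be told apart. A count of 0 allows up to 3 counts, which for the highest transcript of each gene is 0.120 TPM for Pou5f1, 0.0749 TPM for Sox2, 0.0348 TPM for Esrrb and 0.0901 TPM for Zfp42. Against these limits Pou5f1-201 was at least 11709-fold higher in mESCs, Esrrb-203 at least 6065-fold, Sox2-201 at least 4852-fold and Zfp42-202 at least 3174-fold. These limits cover counting error only. Nanog, by its highest transcript in each library, was at 281 TPM in mESCs (Nanog-201) and 0.511 TPM in NIH3T3 (Nanog-203). This is 550-fold higher in mESCs but sets different transcripts side by side, and Nanog-203 itself was at 13.6 TPM in mESCs. The NIH3T3 value is also uncertain. Of the 1965 words of 31 bases in Nanog-203, 233 (11.9%) also occur in transcripts of other genes, and Nanog words were found in 608 transcripts of 545 genes.

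**Figure D1:**
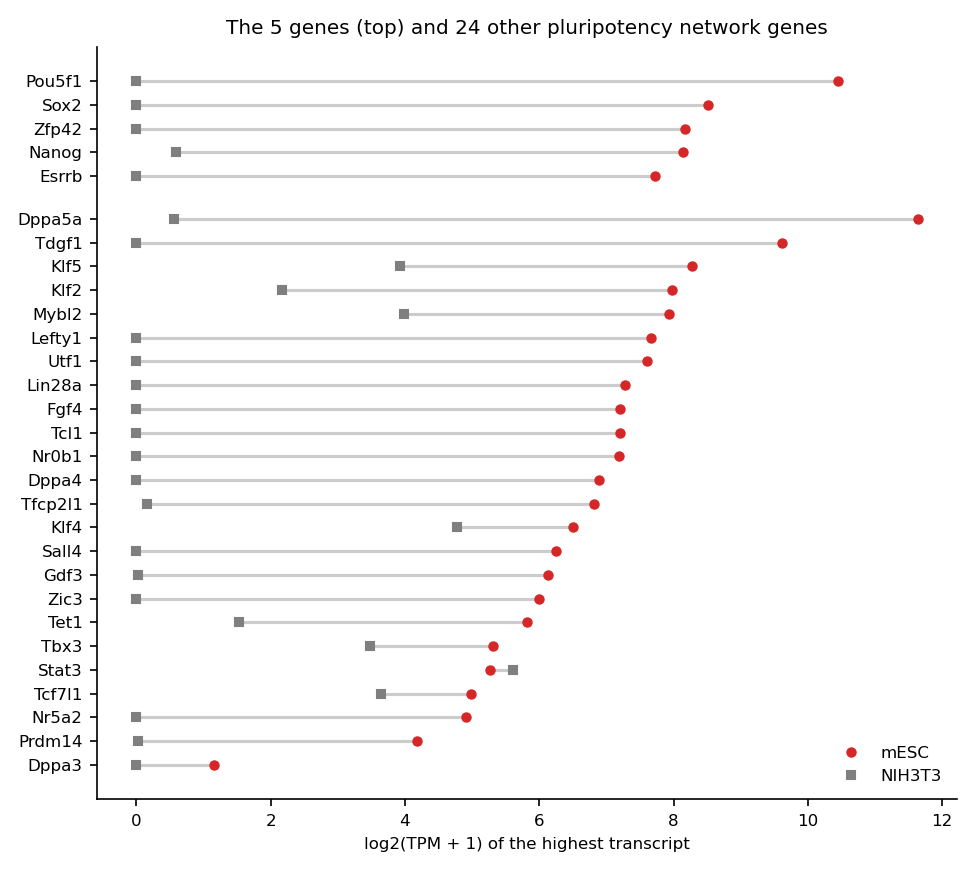
Level of each gene in both RNA-seq libraries, as log2(TPM + 1) of its highest transcript on the horizontal axis. Circles are mESCs and squares NIH3T3, with 1 library each, and the 5 core genes stand above 24 other pluripotency network genes. The circle lies to the right of the square for every gene shown except Stat3.

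Pou5f1 (chr17:35506018-35510772, plus strand) has 6 annotated transcripts, of which 4 were above 1 TPM in mESCs. Pou5f1-201, the only one that starts at the gene start, encodes 352 amino acids and was at 1402 TPM with 35826 estimated counts. Pou5f1-202, which starts at 2787 bp inside the gene, was at 142 TPM but with only 587 estimated counts. Its annotated length is 435 bases, and its effective length, the length over which the authors' program spreads counts, was 209 bases. It was therefore 9.13% of the gene's summed TPM and 1.61% (95% interval 1.48 to 1.74%) of its counts. Pou5f1-205 and Pou5f1-206 were at 5.82 and 4.01 TPM, and Pou5f1-203 and Pou5f1-204 were at 0. Of the 405 words of 31 bases in Pou5f1-202, 26 occur in no other transcript, against 878 of 1332 in Pou5f1-201. All intervals of shares here are exact Clopper-Pearson intervals and cover counting error only.

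Sox2 (chr3:34650405-34652461, plus strand) is a single-exon gene with 1 transcript, and nothing could be divided. Sox2-201 was at 364 TPM with 13115 estimated counts, and 99.1% of its words were its own. The overlapping non-coding gene Sox2ot, within which Sox2 lies, was at 0.259 TPM in mESCs and 0.0212 TPM in NIH3T3.

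Nanog (chr6:122707489-122714633, plus strand) has 3 transcripts that start within 79 bp of each other. Nanog-201 encodes 305 amino acids and was at 281 TPM, which was 93.4% of the summed TPM and 94.2% (93.8 to 94.6%) of the counts. Nanog-203 was at 13.6 TPM and Nanog-202 at 6.26 TPM. Both encode the same number of amino acids, 280, and have 27 and 32 words of their own.

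Zfp42 (chr8:43295063-43306980, minus strand) was the most evenly divided of the 5. Zfp42-202 was at 286 TPM, Zfp42-201 at 156 TPM and Zfp42-203 at 27.4 TPM. Their shares of the counts were 60.3% (59.5 to 61.1%), 33.6% (32.8 to 34.4%) and 6.14% (5.75 to 6.55%). All 3 encode 288 amino acids and start within 44 bp of each other. Zfp42-202 and Zfp42-201 have 27 and 30 words of their own among 1714 and 1742, so few positions tell them apart. A processed pseudogene, Zfp42-ps1 (chr15:93679160-93679649, minus strand), was listed at 164 TPM with 916 estimated counts in mESCs and at 0 in NIH3T3. It shares 255 words with Zfp42, 55.4% of its own, so reads of the shared stretches could belong to either copy and both levels are uncertain.

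Esrrb (chr12:86361117-86521628, plus strand) has 6 transcripts with starts spread over more than 100 kb. Esrrb-203, which starts at 60527 bp, was at 211 TPM with 19901 estimated counts. Esrrb-206, which starts at 109000 bp, was at 66.0 TPM with 1584 counts. By TPM the pair made 72.9% and 22.8% of the gene, and by counts 89.8% (89.4 to 90.2%) and 7.15% (6.81 to 7.50%). Esrrb-202, Esrrb-204 and the non-coding Esrrb-205 were at 4.46, 4.28 and 3.85 TPM, and Esrrb-201 was at 0.

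The annotation bears on how far these Esrrb levels can be told apart. Esrrb-203 has no word of 31 bases of its own, and Esrrb-206 has 27. Of the 4166 words of Esrrb-203, 2881 are absent from Esrrb-206. Of these, 2530 lie in the last exon past the annotated end of Esrrb-206, which stops 2560 bases of exon earlier, and only 291 lie in the first exon at 60527 bp. Reads from that stretch can be assigned to Esrrb-203 but not to Esrrb-206, whichever start the RNA came from. How far this bears on the 2 levels was not tested. Over the 10426 protein-coding genes with at least 2 transcripts and 1 TPM in mESCs, the median share of the highest transcript was 63.2% of TPM (quartiles 47.7 and 83.8%). Pou5f1 and Nanog lay above the upper quartile, and Esrrb and Zfp42 between the quartiles.

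**Figure D2:**
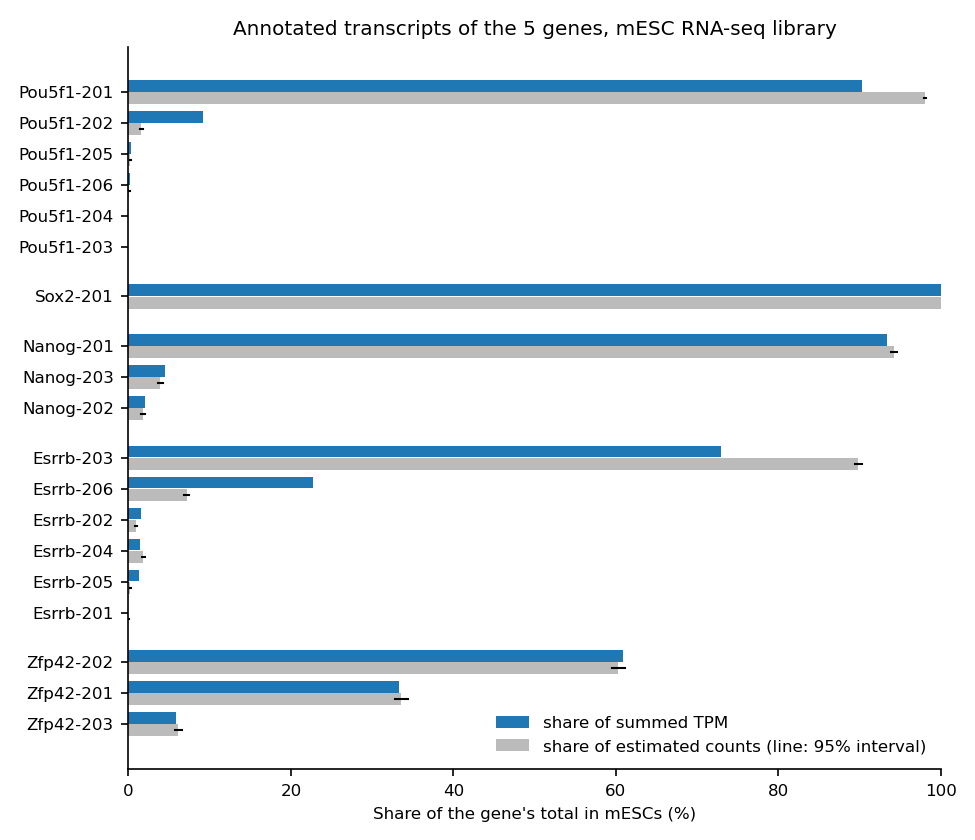
Share of each annotated transcript in the gene's summed TPM (blue) and summed estimated counts (grey) in the mESC library, in percent, with lines for the 95% counting interval of the count share. The bars part most for Esrrb-203, at 72.9% of TPM and 89.8% of counts, and for Esrrb-206.

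The Esrrb peaks began at the start of the shorter transcript, where Esrrb-203 has its second exon. No mESC peak lay in the window from -100000 bp to 108865 bp, the longest stretch without a peak at any of the 5 genes (209 kb). The first summits of the locus were RNAPII Ser5p at 109094 bp (fold enrichment over background 5.96) and H3K27ac at 109390 bp (fold 3.52), which is 94 and 390 bp past the start of Esrrb-206. The same 2 summits are 48567 and 48863 bp past the start of Esrrb-203. They also lie in its second exon, from 109029 to 109438 bp. The first exon of Esrrb-206, from 109000 to 109438 bp, takes in that exon, so by position the 2 cannot be told apart. No NELFA peak was found within 100 kb of the gene. The upstream neighbour Gpatch2l was at 4.20 TPM in mESCs and 4.85 TPM in NIH3T3. Of the 864 protein-coding genes at 100 TPM or more whose highest transcript could be placed, 87.8% had a summit of some mESC list within 1 kb of that transcript's start. Esrrb had none, and the other 4 genes had at least 1.

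From there on Ctr9 covered most of the remaining gene, with 3 peaks one after the other between 109268 and 163036 bp. A Ctr9 peak of 29146 bp with its summit at 119011 bp (fold 12.6) and another of 22586 bp with its summit at 142093 bp (fold 11.9) ranked 2 and 5 by width among all 44748 mESC Ctr9 peaks, whose median width was 391 bp. A peak of 1219 bp (fold 6.34) lay between them. The strongest Ctr9 summit, at 164506 bp with fold 24.7, followed past the gene end in a peak of 3358 bp. Counting 44 peaks in all, the locus had 5 Ctr9, 8 H3K27ac, 15 RNAPII Ser5p and 16 RNAPII Ser2p peaks and fell into only 2 sites when peaks at most 500 bp apart were joined. H3K27ac stayed in 2 groups, at 109390 to 118381 bp and at 139497 to 142815 bp. RNAPII Ser5p was highest at 118195 bp (fold 9.88). RNAPII Ser2p had fold 3.21 to 5.08 at its 10 summits in the gene and fold 3.47 to 7.18 at its 6 summits past the end, the highest at 163827 bp.

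**Figure D3:**
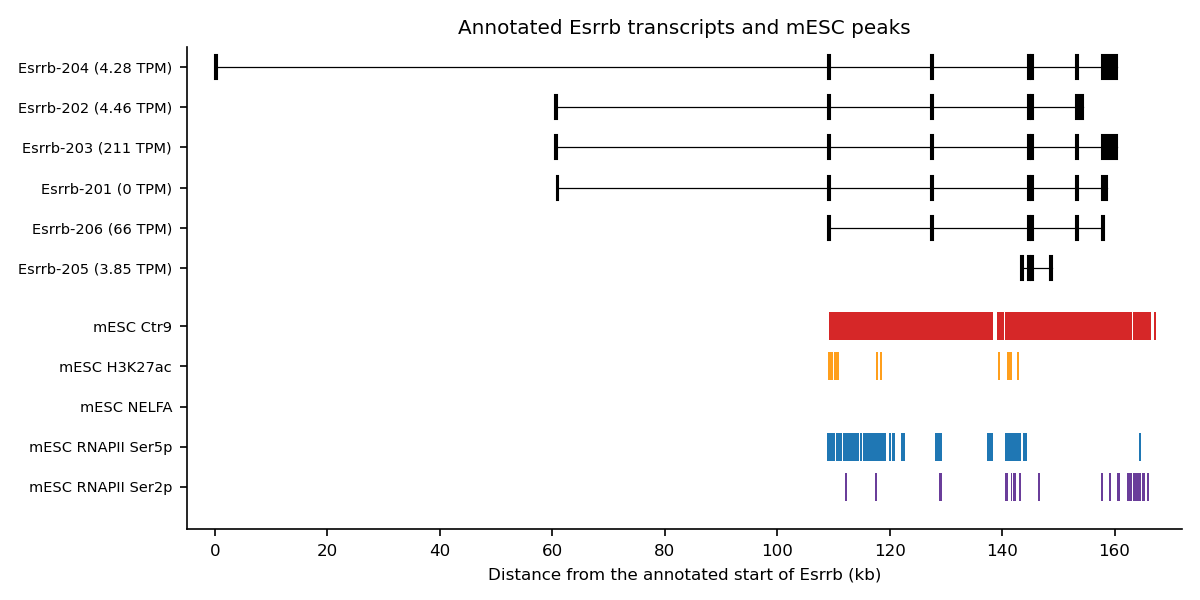
Exons (black boxes) of the 6 annotated Esrrb transcripts with their TPM in mESCs, above the peaks of the 5 mESC lists, against distance from the annotated gene start in kb; features too narrow to see are widened. All peaks begin at 108865 bp or later. Esrrb-206 starts at 109000 bp, and the second exon of Esrrb-203 at 109029 bp.

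At Pou5f1 the mESC peaks formed 4 sites, of which 1, of 14585 bp from -3508 to 11076 bp, held all 5 mESC lists. The other 3 held Ctr9 alone, with summits at 26628 and 26909 bp, at 45117 bp and at 51210 bp and fold 3.37 to 5.06. Upstream, the distal part held H3K27ac at -2406 bp (fold 2.83), NELFA at -2294 bp (fold 4.27), Ctr9 at -2272 bp (fold 6.72) and RNAPII Ser5p at -2100 bp (fold 10.7). A second H3K27ac summit followed at -1418 bp (fold 3.20) and a second Ctr9 summit at -369 bp (fold 7.84). This was the only NELFA peak of the locus, and it lay away from the start. Within the gene RNAPII Ser5p summits at 222, 1104, 2251 and 3494 bp accompanied 1 Ctr9 summit at 3104 bp (fold 7.46), and Ctr9 peaks covered 93.0% of the gene. The strongest summits lay past the end, with RNAPII Ser5p at 8060 bp (fold 11.5), RNAPII Ser2p at 8136 bp (fold 11.6) and Ctr9 at 8220 bp (fold 16.5). All 3 fall in an intron of Tcf19, a gene of the opposite strand that runs toward Pou5f1, and by position the peaks of the converging genes cannot be told apart. Tcf19 was at 6.75 TPM in mESCs and 44.4 TPM in NIH3T3.

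At Sox2 a compact site and a long tail were seen. RNAPII Ser5p summits at -1582, -1064 and -289 bp (fold 5.36, 5.99 and 14.2) and NELFA at -360 bp (fold 4.85) preceded the gene. Ctr9 summits also preceded it, at -1502 and -892 bp (fold 4.03 and 3.74, beside a list median of 3.71). A Ctr9 peak of 8814 bp covered all of Sox2 and had its summit at 2453 bp (fold 18.2), which is 397 bp past the end. RNAPII Ser2p followed at 2505, 2949, 4069 and 5054 bp with fold 4.02 to 6.24. RNAPII Ser5p also lay past the end, at 3369 and 6861 bp (fold 11.8 and 3.63). H3K27ac lay at -981, 143 and 3376 bp (fold 2.13, 2.33 and 2.84), below the median fold of 3.97 over all mESC H3K27ac peaks. Farther on, 15 Ctr9 summits between 8960 and 32879 bp had fold 2.85 to 5.69, and no other list had a peak there. A further H3K27ac peak, the last in the window, lay at 94573 bp (fold 4.50). Just outside the window lay H3K27ac at 105744, 107354 and 109491 bp (fold 2.29 to 2.52). Ctr9 at 106978 bp (fold 6.78) and RNAPII Ser5p at 107322 bp (fold 6.80) lay among them.

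Nanog had the most crowded window, with 74 mESC peaks in 12 sites, which it shares with other transcribed genes. The far upstream site, with summits from -99151 to -97665 bp, lies in Gdf3, a TGF-beta family ligand at 68.9 TPM in mESCs and 0.0210 TPM in NIH3T3. A second site, with summits from -45271 to -43798 bp, and the nearest one, with summits from -5427 to -3528 bp, each carried Ctr9, H3K27ac and RNAPII Ser5p. The highest H3K27ac fold within 5 kb of Nanog, 5.05, lay in the nearest one at -4611 bp. NELFA at 217 bp (fold 5.79) and RNAPII Ser5p at 235 bp (fold 11.3) marked the start, and no H3K27ac summit lay within 1 kb of it. Past the end RNAPII Ser5p at 7574 bp (fold 9.17), RNAPII Ser2p at 8001 bp (fold 8.20) and Ctr9 at 8120 bp (fold 13.1) followed each other closely.

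The downstream neighbour Slc2a3, a glucose transporter of the opposite strand, was at 362 TPM in mESCs and 1.86 TPM in NIH3T3. The gene and the 1 kb past its end held the widest Ctr9 peak of the Nanog window, 16278 bp with its summit at 19960 bp (fold 16.1), which ranked 16 by width in the list. The same stretch held 9 of the 10 RNAPII Ser2p peaks of the window and the highest NELFA fold of the 5 loci, 10.3 at 34967 bp. In an intron of Slc2a3 a further site, with summits from 55945 to 58399 bp, carried Ctr9, H3K27ac, NELFA (fold 4.30) and the highest RNAPII Ser5p fold of the window, 11.7 at 57566 bp. Counts in the Nanog window are therefore in part counts of Slc2a3.

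At Zfp42 a site of 23869 bp from -2695 to 21173 bp held all 5 lists. Ctr9 at -558 bp (fold 10.6), RNAPII Ser5p at -578 bp (fold 7.98) and H3K27ac at -560 bp (fold 3.77) lay within 20 bp of each other, and NELFA lay at 91 bp (fold 6.82). A Ctr9 peak of 8009 bp had its summit at 7502 bp (fold 13.7), and Ctr9 peaks covered 98.8% of the gene. Past the end, Ctr9 at 16725 bp had fold 30.1, the highest at the 5 loci and rank 37 in the list. RNAPII Ser2p at 16728 bp had fold 11.7. An RNAPII Ser5p peak at 17002 bp (fold 10.7) and NELFA at 16272 and 17124 bp (fold 3.41 and 4.47) lay in the same 12708 bp Ctr9 peak. Upstream, H3K27ac peaks without RNAPII lay at -46615, -15169 and -14362 bp. A separate group of 3 Ctr9 peaks began at 107207 bp near the pseudogene Gm2221, which was at 0 TPM in both libraries, and no other protein-coding gene reaches into the window. The window edge cuts this group. Beyond it Ctr9 summits ran on from 112470 to at least 161707 bp, some of them in Triml2 and Gm6284. RNAPII Ser5p at 125274 bp and H3K27ac at 125865 bp lay among them.

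**Figure D4:**
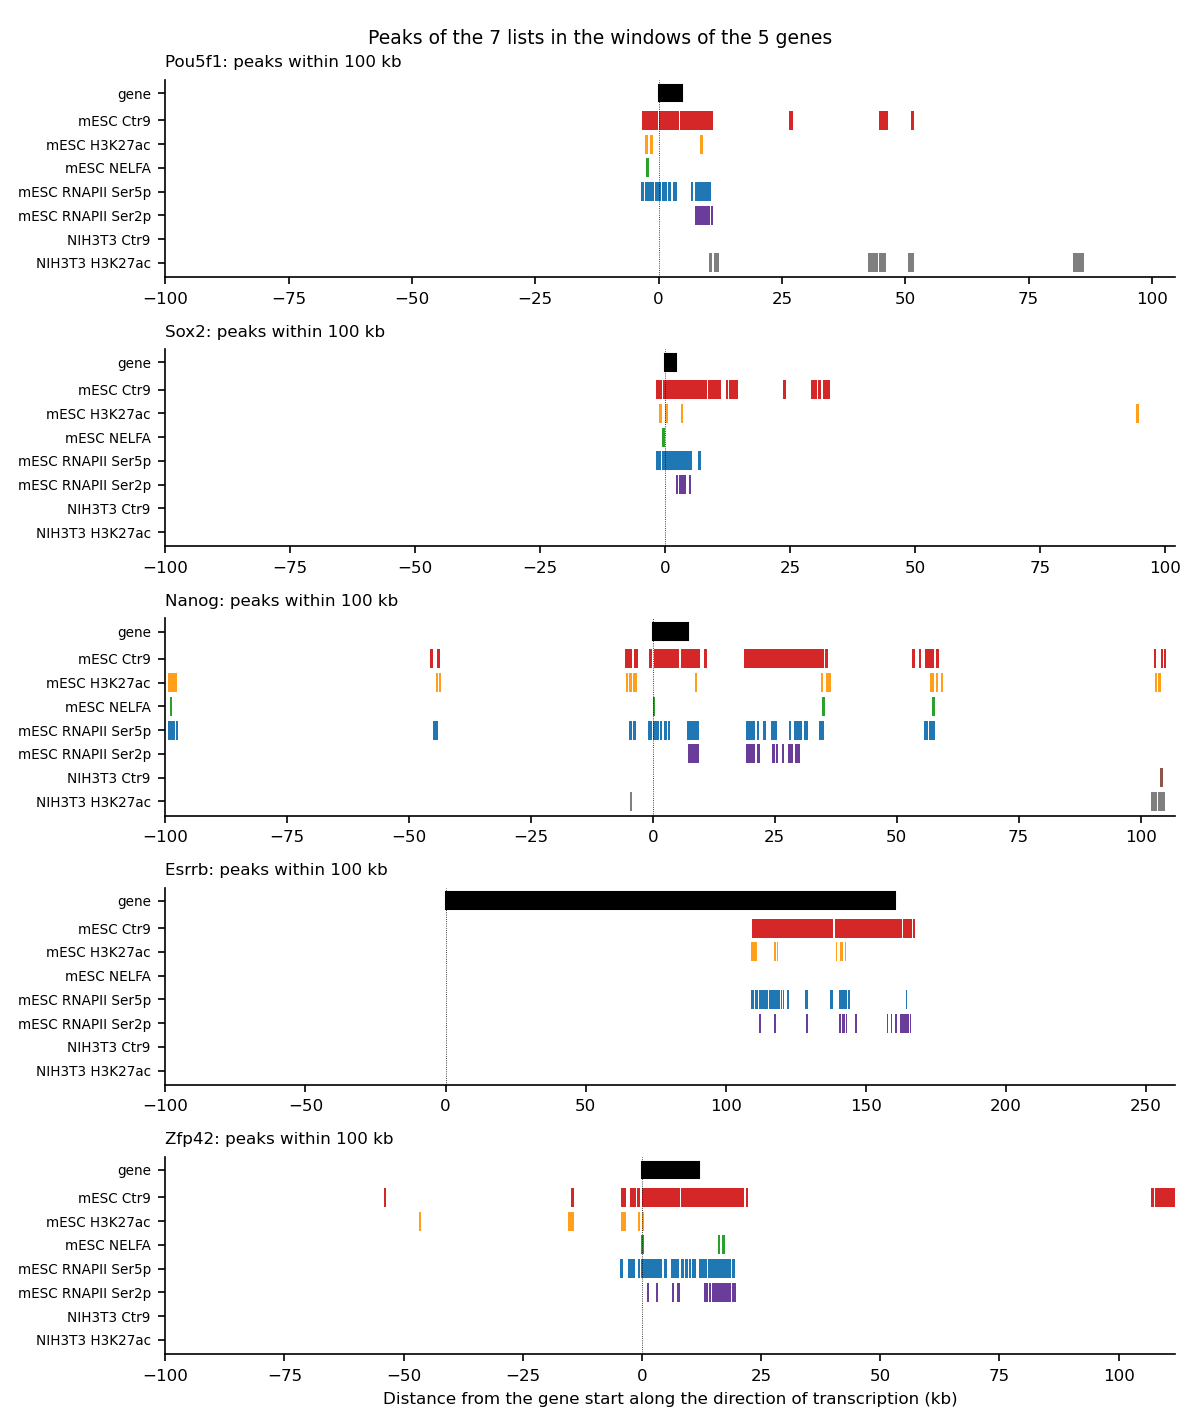
Peaks of the 7 lists in the gene (black) and within 100 kb on each side, against distance in kb from the gene start along the direction of transcription; peaks too narrow to see are widened. NIH3T3 peaks are found in the windows of Pou5f1 and Nanog and in none of the other 3.

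Put side by side, the 5 windows held 64 Ctr9, 37 H3K27ac, 9 NELFA, 67 RNAPII Ser5p and 40 RNAPII Ser2p peaks in mESCs. All 5 genes had a Ctr9 and an H3K27ac summit within 100 kb, as did 69.8% and 79.6% of all protein-coding genes. All 5 had RNAPII Ser5p and Ser2p, against 36.7% and 22.4% of all, and 4 had NELFA, against 32.6%. The numbers ranged from 5 Ctr9 peaks at Esrrb to 21 at Nanog, with a median of 5 over all protein-coding genes and of 18 over those at 100 TPM or more. In the latter group the upper quartile for Ctr9 was 30. RNAPII Ser5p stood at 5 to 24 peaks per gene, beside a median of 2 and an upper quartile of 5 in that group. RNAPII Ser2p stood at 2 to 16, beside a median of 1 and an upper quartile of 2. H3K27ac stood at 3 peaks for Pou5f1, 4 for Sox2, 7 for Zfp42, 8 for Esrrb and 15 for Nanog. Its median in that group was 6 and its upper quartile 9. These counts take in the gene itself, so a longer gene has a wider window. At Esrrb, a gene of 160512 bp, 10 of the 16 RNAPII Ser2p peaks lay in the gene. At Nanog 9 of the 10 were those at Slc2a3. The median H3K27ac fold of the 5 windows ranged from 2.44 at Esrrb to 3.34 at Zfp42, below the 3.97 of the whole mESC list. A summit within 1 kb of the start of the highest transcript was found for Ctr9 at 4 of the 5 genes (37.3% of genes at 100 TPM or more), for RNAPII Ser5p at 4 (44.1%), for NELFA at 3 (38.8%) and for H3K27ac at 2 (81.1%), which were Sox2 and Zfp42. For RNAPII Ser2p it was found at none (4.28%). Ctr9 peaks covered 100% of Sox2, 98.8% of Zfp42, 93.0% of Pou5f1, 83.5% of Nanog and 31.4% of Esrrb, beside a median of 24.3% (quartiles 3.97 and 72.7%) over the 904 genes at 100 TPM or more.

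The strongest RNAPII Ser2p and Ctr9 summits near each gene lay past its end, whereas the other marks were ordered differently from gene to gene. Within 100 kb no RNAPII Ser2p peak lay upstream of any of the 5 genes, 14 lay in the genes and 26 past the ends. Of the 26, 9 were those at Slc2a3, and just outside the window 1 lay upstream of Nanog at -101982 bp, in Gdf3. Within 5 kb of each gene the strongest Ctr9 summit lay past the annotated end at all 5, from 397 bp at Sox2, 976 bp at Nanog, 3466 bp at Pou5f1 and 3995 bp at Esrrb to 4808 bp at Zfp42. The strongest RNAPII Ser2p summit lay past the end at all 5 too. It was 3 to 679 bp from the Ctr9 summit and inside the same Ctr9 peak. At Pou5f1 the strongest Ctr9 summit and both RNAPII Ser2p summits of the window fell in Tcf19. By position they cannot be assigned to either gene. A strongest summit past the end was common elsewhere. The strongest Ctr9 summit lay past the end in 54.6% of the 9910 protein-coding genes with one and in 83.3% of those at 100 TPM or more, and for RNAPII Ser2p the shares were 50.1% and 84.5%. The strongest NELFA summit lay upstream or in the gene at all 4 genes with one, where it lay past the end in 13.7% of all protein-coding genes with one and in 5.19% of those at 100 TPM or more. Within the same 5 kb the strongest RNAPII Ser5p summit lay past the end at Pou5f1 only (22.9% of all and 27.1% of genes at 100 TPM or more), and the strongest H3K27ac at Sox2 only (11.1% and 5.5%). At Zfp42 the higher RNAPII Ser5p summit at 17002 bp lay 5085 bp past the end and was not counted.

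**Figure D5:**
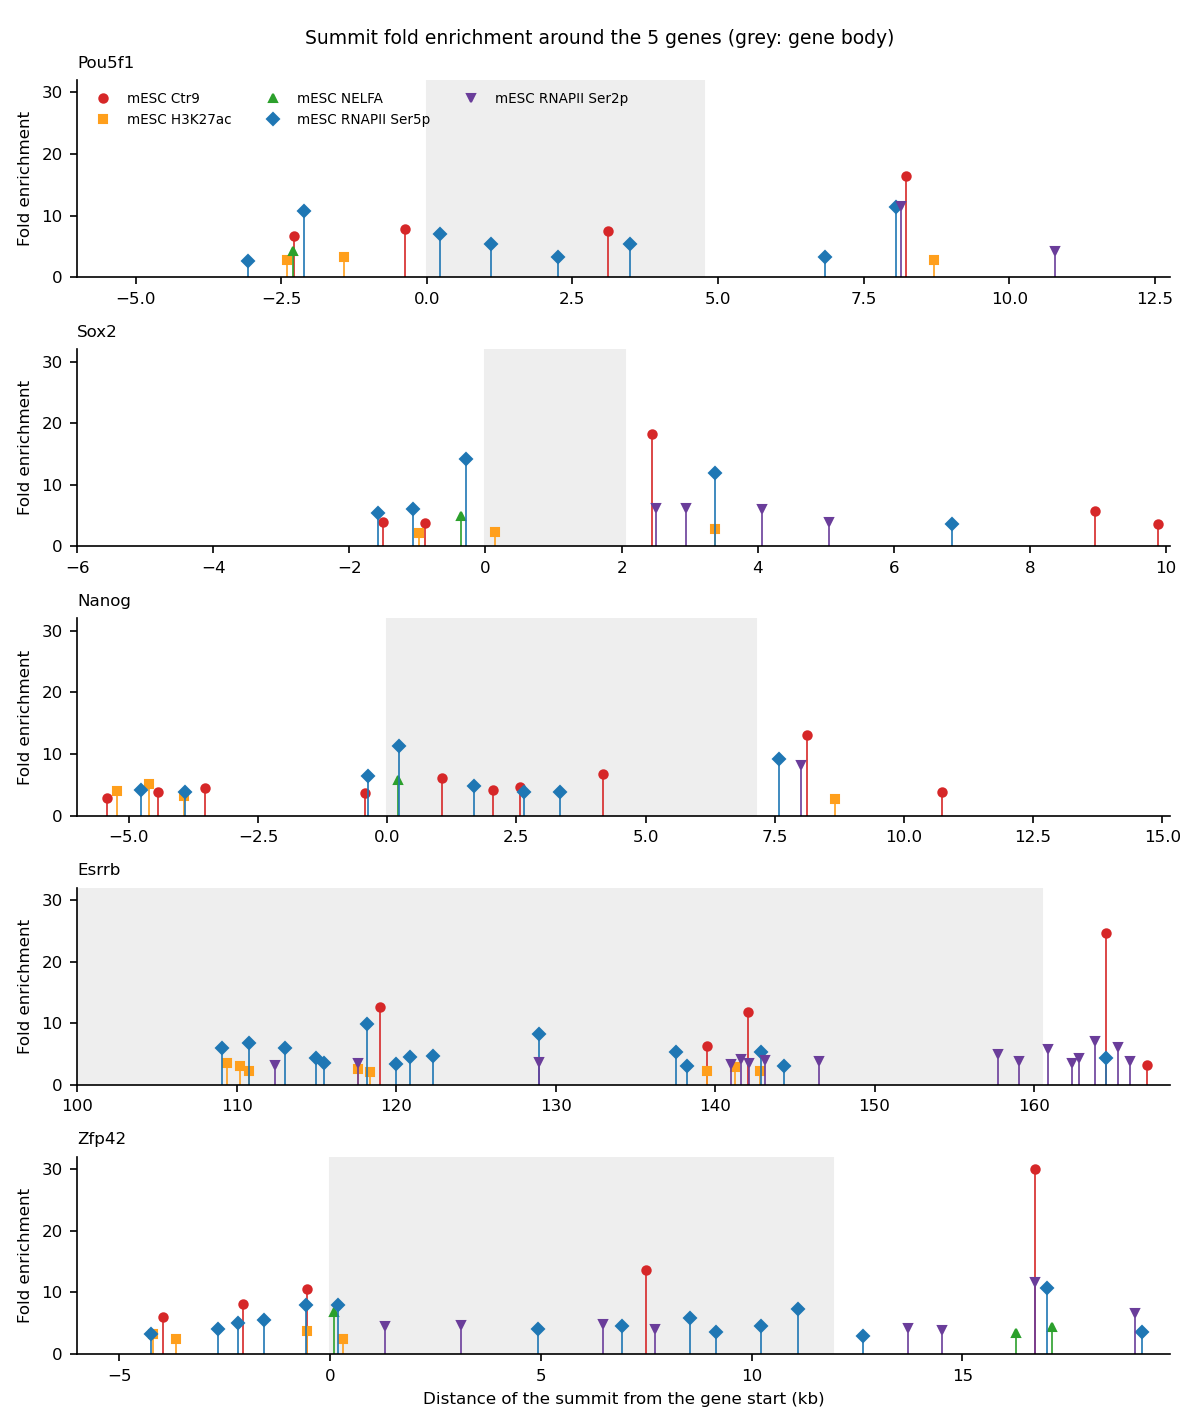
Fold enrichment at each mESC summit from 6 kb before the gene start to 8 kb past the gene end (Esrrb from 100 kb on), against distance from the gene start in kb, with the gene body in grey. The tallest Ctr9 stem of each panel, fold 13.1 to 30.1, stands to the right of the gene body with a RNAPII Ser2p summit beside it.

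Ctr9 peaks of the 5 loci often met another mark. Of the 64, 22 (34.4%) overlapped a mESC H3K27ac peak by at least 1 bp, against 9.3% of all mESC Ctr9 peaks. With the Ctr9 summit itself inside the H3K27ac peak, the count was 10 (15.6%), against 6.46% of all. RNAPII Ser5p was met by 26 (40.6%, against 5.6%), RNAPII Ser2p by 9 (14.1%, against 2.39%) and NELFA by 7 (10.9%, against 1.82%). Peaks of 1 locus lie close together and are not independent, and wide peaks meet more. The other 32 Ctr9 peaks met none of the 4. They were weaker and narrower, with a median fold of 3.59 and a median width of 316 bp, against 6.06 and 1181 bp for those that met another mark. By gene, 15 of 18 Ctr9 peaks stood alone at Sox2, 6 of 12 at Zfp42, 6 of 21 at Nanog, 4 of 8 at Pou5f1 and 1 of 5 at Esrrb. None of the 64 summits had the Oct-Sox composite within 150 bp on each side, a word found at 2 of 44738 Ctr9 summits (0.00447%).

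In NIH3T3 the windows were nearly empty of Ctr9. The single NIH3T3 Ctr9 peak (fold 3.45) lay at 104329 bp from Nanog, in the unclassified gene Gm5112 (0.977 TPM in mESCs and 0.655 TPM in NIH3T3), so 1 of the 5 genes had any within 100 kb, against 54.1% of all protein-coding genes. Of the 64 mESC Ctr9 peaks, 1 (1.56%) met a NIH3T3 Ctr9 peak, against 17.8% of all mESC Ctr9 peaks, and 8 (12.5%) met NIH3T3 H3K27ac, against 8.82%. NIH3T3 H3K27ac was present at 2 of the 5 genes, against 79.6%. At Pou5f1 all 8 such peaks lay downstream, from 10437 to 85830 bp, with summits in Tcf19, Cchcr1 and Cdsn and between genes. None met a mESC H3K27ac peak, beside 24.8% of all NIH3T3 H3K27ac peaks that did. Cdsn, a gene of the skin barrier, was at 0.867 TPM in mESCs and 14.3 TPM in NIH3T3. Cchcr1, which encodes a coiled-coil protein, was at 6.28 and 12.5 TPM. Psors1c2, the gene nearest to the mESC Ctr9 summits at 26628 and 26909 bp, was at 1.28 and 0.573 TPM. Sfta2 was at 0.303 and 0 TPM, and Gm19553, antisense to Pou5f1, was at 0 TPM in both libraries.

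At Nanog all 3 NIH3T3 H3K27ac peaks met a mESC H3K27ac peak, against 24.8% of all NIH3T3 H3K27ac peaks. Of these, 2 lay at Gm5112, with fold 18.6 and 40.3. The other, at -4533 bp with fold 13.2, lay 78 bp from the strongest mESC H3K27ac summit near Nanog, at -4611 bp with fold 5.05. Folds of the libraries are not on one scale. No NIH3T3 peak lay within 100 kb of Sox2, Esrrb or Zfp42.

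Of 24 other genes of the pluripotency network, 23 were at least 2-fold higher in mESCs on the log2(TPM + 1) scale, against 13.5% of all protein-coding genes, and none was at least 2-fold lower (11.3% of all). The median difference was 6.05 over the 24 genes, 8.16 over the 5 core genes and 0 over all. The highest were Dppa5a, a KH domain protein of early embryos (3190 TPM in mESCs, 0.482 in NIH3T3), and Tdgf1, a co-receptor of Nodal (784 and 0 TPM). The transcription factors Klf5 (310 and 14.2 TPM), Klf2 (251 and 3.48 TPM) and Mybl2 (244 and 14.8 TPM) came next. Stat3, which carries the signal of leukaemia inhibitory factor, was the exception at 37.4 and 48.0 TPM. The strongest Ctr9 summit within 5 kb lay past the gene end in 20 of the 23 with one, near the 83.3% of genes at 100 TPM or more, and in the gene in 3.

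The genes with the most similar pattern were found over 9 values, the 2 RNA levels and the strongest fold of each of the 7 lists within 5 kb, each as log2(value + 1) and divided by its standard deviation over genes. The nearest to Pou5f1 were Tdh, a threonine dehydrogenase (distance 1.05), Tdgf1 (1.20) and Zfp42 (1.41), where the median gene lay at 8.52. Tdh (1.15), Tdgf1 (1.20) and the growth factor gene Fgf4 (1.20) were nearest to Sox2. Zfp42 had Fgf4 (1.09), Tdgf1 (1.10) and Tdh (1.18). Nanog, which has the NIH3T3 H3K27ac peak within 5 kb, had Lefty1, a Nodal inhibitor (0.768), Spry4, an inhibitor of receptor tyrosine kinase signalling (1.25), and Chchd10, a mitochondrial protein (1.29). Esrrb, without NELFA, had L1td1, an RNA-binding protein of mESCs (0.421), the tight junction gene Cldn4 (1.13) and the zinc finger gene Sall1 (1.20), all 3 without a NELFA peak. Sox2, Pou5f1 and Zfp42 thus shared neighbours, whereas Nanog and Esrrb shared none with them. The measure includes the NELFA and NIH3T3 H3K27ac folds among its 9 values. The shared lack of NELFA and this grouping therefore follow in part from the measure.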

How the data were processed

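The deposited RNA-seq tables hold estimated counts, effective lengths and TPM per transcript, made by the authors with kallisto 0.46.1 on GENCODE M19. The deposited peak lists were made by the authors with Bowtie2 2.3.5.1 on mm10 and MACS2 2.2.6, 1 library per list, and hold the fold enrichment at the summit (a ratio), −log10 of the p-value and q-value, and a score. Read depth of the ChIP-seq libraries is not given in these lists, so an absent peak may be a matter of depth. Gene models were GENCODE M21, and 136468 of the 137767 transcript identifiers matched its sequences. Every peak on the assembled chromosomes lay within the GRCm38.p6 lengths, and 155 peaks on other sequences lie in no window. Distances run from the gene start along the strand, and past the end from the gene end. Gene level is the transcript with the highest TPM. Peak counts use summits in the gene or within 100 kb, and differences use log2(TPM + 1). Whole transcripts were compared by shared words of 31 bases.

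The members and gene lists were chosen with earlier results of these data known. Named transcripts are those of the 5 genes at 1 TPM or more, with any at 0 listed. Named neighbours have a summit in the gene or within 1 kb, or reach into the window at 10 TPM or more, with at most 6 per locus. Named network genes are the 5 highest in mESCs and any not past 2-fold, and the 3 most similar genes are given for each member. The pseudogene, the promoter motifs other than the Oct-Sox composite, and the shared words were looked at after the values were seen. SciPy 1.17.1, pandas 2.3.3 and NumPy 2.4.6 were run under Python 3.11.15, and the code was tested on simulated data.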

Additional observations from a re-analysis of the deposited data

How the results depend on the processing

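Over 20 results recomputed under 46 other settings, 34 left the value within its counting interval, within 1.5 times for counts, or unchanged for distances. A change of direction was looked for only in the distances, and there the summits past the gene end fixed the sign beforehand. Shares of the highest transcript by estimated counts in place of TPM were 98.0% for Pou5f1, 94.2% for Nanog and 89.8% for Esrrb, the shorter transcripts having fewer counts per TPM. With windows of 150 kb there were 108 mESC Ctr9 and 26 NIH3T3 H3K27ac peaks, and with 50 kb there were 7 NIH3T3 H3K27ac and 0 NIH3T3 Ctr9 peaks. At −log10 q of at least 5 the NIH3T3 Ctr9 count was also 0. With the Ctr9 summit required inside the H3K27ac peak, 10 Ctr9 peaks met one. From the start of the highest transcript the strongest Ctr9 summit lay at 8041 bp for Nanog, 103979 bp for Esrrb and 16695 bp for Zfp42, since that start is not the gene start. With 1 mismatch the Oct-Sox composite was at 0 of the 64 Ctr9 summits, beside 0.161% of all, a rate too low for the 0 to set these loci apart.

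No paired analysis was possible because each group has 1 library. The spread between cultures is unknown for every value, and peak lists give no level below their calling threshold.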
